A study of Mus musculus with 65 samples.

Results

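Proprotein convertases are serine proteases that cut inactive precursor proteins into their working forms. The 8 genes described here were Furin, Pcsk1, Pcsk2, Pcsk4, Pcsk5, Pcsk6, Pcsk7 and Mbtps1, taken by symbol from the 55292 gene symbols of the count table, and all 8 had a row in it. Their transcripts were counted in 65 single mouse outer hair cells (OHCs) of the cochlea at postnatal day 10, the cells that amplify sound through the motor protein prestin. The 17 cells of the Casz1 CKO group came from mice with Casz1flox/flox and Atoh1Cre/+, in addition to the Slc26a5FlpO/+ driver and the Rosa26FSF-H2BEGFP/+ reporter. The 48 WT cells came from mice with the Slc26a5FlpO/+ driver and the Rosa26FSF-H2BEGFP/+ reporter but with neither Cre nor floxed Casz1, so Cre and the loss of Casz1 cannot be told apart. In both groups the prestin gene drove FlpO, which turned on the nuclear GFP of the cells picked by hand. Atoh1, whose gene drives Cre, is active in nascent inner and outer hair cells. The extraction text shared by all samples speaks of other hair cell types (IHCs and iOHCs), whereas titles and design name OHCs, which are followed here. The family was chosen with the values of these same cells known, the absence of Pcsk6 from CKO cells among them, so every value below is a description and none is a test.

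Most of the family acts on proteins that pass through the secretory pathway, cutting after paired basic residues in the trans-Golgi network, in secretory granules, at the cell surface or in the extracellular matrix. Furin, Pcsk5, Pcsk6 and Pcsk7 serve constitutive secretion and mature growth factors, receptors and metalloproteases. Pcsk1 and Pcsk2 work in the granules of neurons and endocrine cells, Pcsk4 is known from germ cells, and Mbtps1 encodes site-1 protease, which recognises other residues and releases the membrane-bound transcription factors SREBP and ATF6 in the Golgi. In hair cells the precursors of neurotrophins and adhesion proteins are among the proteins with convertase sites.

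Total counts ran from 8239671 to 15320549 per CKO cell and from 7458126 to 17107710 per WT cell. No animal is named in the labels, so each genotype is 1 sample and there is no replicate check; intervals below are at 95%, cover counting error only (those of shares treat cells as independent draws), and hold no spread between animals. The 8 OHC markers were summed to 34340 to 91011 CPM (counts per 1000000) per CKO cell and 16237 to 64659 CPM per WT cell, and none of them was without counts in either group. Supporting cell markers were at 1403 to 5016 CPM in CKO cells and 1992 to 7616 CPM in WT cells. Nearly all of this came from S100a1 and Cldn9, which had counts in every cell. Fgfr3 was counted in 6 CKO and 30 WT cells, Tectb in 5 and 20, Gjb2 in 1 and 10, and Gjb6 in 2 and 9. Lgr5 was counted in 5 and 9 cells, Otog in 2 and 4, Sox2 in 0 and 2, Prox1 in 0 and 1, and Slc1a3 in 1 and 0. Inner hair cell markers were at 0 to 314 CPM in CKO cells and 0 to 1041 CPM in WT cells, and Rprm was at 0 everywhere. Otof gave most of that, at 81.6 CPM in CKO cells and 170.1 CPM in WT cells, followed in WT cells by Atp2a3, at 0.485 CPM in CKO cells (4 of 17 with a count) and 43.7 CPM in WT cells (30 of 48), whereas Slc17a8 was at 17.07 and 12.1 CPM. Neuron markers were at 0.224 to 559 CPM in CKO cells and 0 to 897 CPM in WT cells, mostly Snap25, with Gap43 at 0 everywhere, and glia markers at 0 to 320 CPM and 0 to 459 CPM, with Pmp22 at 0 everywhere. The highest sums in CKO and WT cells were 117 and 546 CPM for mesenchyme, 73.4 and 188 CPM for macrophages, 176 and 35.6 CPM for endothelium and 49.2 and 42.7 CPM for erythroid cells, and the part of any of these in the results was not tested. Casz1 stood at 46.2 CPM in CKO cells and 53.3 CPM in WT cells; the deleted exons are not named in the labels, so this checks nothing, and "CKO cells" below means cells so labelled. Xist counts without Y-linked counts were found in 15 of 17 CKO cells and 9 of 48 WT cells, and Y-linked counts without Xist in 0 and 37, so genotype and sex can hardly be told apart. Earlier results on these data had split the WT cells by mt-Co2, a mitochondrial transcript, into numbers 1 to 11, 12 to 45 and 46 to 48, and the middle run breaks in depth between cells 24 and 25. The labels name no batch, and values by run are given where they change a result. Of the 9 Xist-pattern WT cells 8 are in cells 1 to 11, which also hold 3 Y-pattern cells.

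Upstream sequences are shown for the gene counted in every cell (Pcsk5) and for the 2 members that reached 5 CPM in 1 genotype and had no count in the other (Pcsk6 and Pcsk1). Each is the 250 bases before the start annotated by RefSeq on GRCm38.p6, 5′ to 3′ on the strand of the gene, at chr7:65861886-65862135 (plus strand) for Pcsk6, chr13:75089607-75089856 (plus strand) for Pcsk1 and chr19:17837633-17837882 (minus strand) for Pcsk5. Capitals mark the GC box GGGCGG, or its reverse complement CCGCCC, and the cyclic AMP response element TGACGTCA.
Pcsk6: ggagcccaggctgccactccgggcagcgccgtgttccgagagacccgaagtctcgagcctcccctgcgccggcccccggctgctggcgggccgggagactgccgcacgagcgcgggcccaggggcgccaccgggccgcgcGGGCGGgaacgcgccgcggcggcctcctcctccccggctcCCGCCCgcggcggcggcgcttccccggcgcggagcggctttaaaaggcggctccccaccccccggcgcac
Pcsk1: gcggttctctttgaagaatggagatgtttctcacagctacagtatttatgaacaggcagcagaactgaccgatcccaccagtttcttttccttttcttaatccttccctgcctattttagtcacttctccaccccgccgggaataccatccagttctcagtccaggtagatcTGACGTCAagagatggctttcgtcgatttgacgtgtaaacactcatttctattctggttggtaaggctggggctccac
Pcsk5: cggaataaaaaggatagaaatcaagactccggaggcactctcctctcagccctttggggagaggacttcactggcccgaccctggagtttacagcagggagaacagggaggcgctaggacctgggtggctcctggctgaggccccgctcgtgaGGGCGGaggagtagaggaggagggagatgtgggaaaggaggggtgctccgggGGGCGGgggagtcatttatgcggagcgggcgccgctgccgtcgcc
The Pcsk6 window was 81.2% G and C, that of Pcsk5 64% and that of Pcsk1 46.8%, beside a median of 52.4% over 32851 promoter windows of the same length. A GC box occurred 2 times in the Pcsk6 window and 2 times in that of Pcsk5, and in 32.7% of all windows. The Pcsk1 window held TGACGTCA, which 1.55% of all windows hold. The TATA box TATAAA, found in 12.4% of all windows, and the E-box CANNTG, found in 66.2%, were searched on both strands and have no match in these 3 windows. Of the 8 members 7 had an entry in the RefSeq table. On GRCm38 the GENCODE genes lie at chr7:65861734-66050386 (Pcsk6, plus strand), chr7:80388585-80405436 (Furin, minus), chr13:75089826-75134861 (Pcsk1, plus), chr2:143546156-143816285 (Pcsk2, plus), chr10:80321283-80329498 (Pcsk4, minus), chr19:17432319-17837632 (Pcsk5, minus), chr9:45906497-45929726 (Pcsk7, plus) and chr8:119508156-119558735 (Mbtps1, minus). The annotations place starts differently: the RefSeq window of Pcsk6 lies inside the GENCODE gene, and that of Pcsk1 reaches into it.

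Pcsk6, which encodes the convertase PACE4, was found in WT cells and in none of the CKO cells. Pcsk6 had 0 counts in each of the 17 CKO cells, against a lowest of 0, a median of 0.0859 and a highest of 150.1 CPM in the 48 WT cells. A count was seen in 0 of 17 CKO cells, for which 3 cells of the total give a limit of 17.6% and the exact binomial interval one of 19.5%, and in 25 of 48 WT cells (52.1%, exact binomial interval 37.2% to 66.7%). In 8 of those 25 WT cells Pcsk6 had fewer than 10 counts, so 17 of 48 WT cells (35.4%, 22.2% to 50.5%) had 10 or more. The remaining 23 WT cells were at 0 like the CKO cells, so the groups overlapped at 0, and a WT cell was strictly higher in 52.1% of the 816 pairs of cells with the other 47.9% tied. Summed over cells Pcsk6 stood at 0 CPM in CKO cells and 20.1 CPM in WT cells (19.7 to 20.5). With 3 counts over the CKO group in place of none, it was 1340-fold lower in CKO cells (log2 ratio -10.39, -12.67 to -8.84). This fold is in reads, which are not independent molecules. Among the 3003 genes with 10 or more counts in 10 to 20 WT cells, 0.666% had no count in any CKO cell, and among the 9776 genes at 5 CPM or more in WT cells 1.52% had none. This contrast was known when the gene was chosen, so nothing is read from its place in these shares.

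Within the WT group Pcsk6 was unevenly spread over the cell numbers. Cells with 10 or more Pcsk6 counts made up 13 of 21 among WT cells 25 to 45, against 2 of 11 among cells 1 to 11, 1 of 13 among cells 12 to 24 and 1 of 3 among cells 46 to 48. All 8 cells numbered 29 to 36 had such counts, from 5.05 to 150.1 CPM, as had the 4 cells numbered 43 to 46, from 17.96 to 72.6 CPM. The summed level was 38.1 CPM in WT cells 25 to 45 and 5.44 CPM in WT cells 1 to 24, a log2 ratio of 2.81; between those same cells 1947 of 10814 genes were at least 2-fold higher and 1536 at least 2-fold lower in cells 25 to 45. Against WT cells 12 to 24, where only cell 19 held more than 10 counts, the CKO cells were thus set beside 4.20 CPM rather than 20.1 CPM. Among cells with Xist and no Y-linked counts, 0 of 15 CKO cells and 2 of 9 WT cells had 10 or more counts of Pcsk6, at 0 and 7.97 CPM. Y-linked WT cells had 14 of 37 such cells and 20.7 CPM. The level of the Xist-pattern WT cells rested on WT cell 8, which held 925 of their 983 counts. Within WT cells 1 to 11, Pcsk6 had 10 or more counts in 2 of 8 Xist-pattern cells and 0 of 3 Y-pattern cells, at 8.76 and 0.0688 CPM. Cell 8 again held 925 of the 981 counts in those Xist-pattern cells. Exons of Pcsk6 share 156 bases with Gm45213 on the same strand, which had 0 counts in CKO cells and 0 in WT cells. The part of sex and of cell number in the difference between genotypes was not tested.

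**Figure D1:**
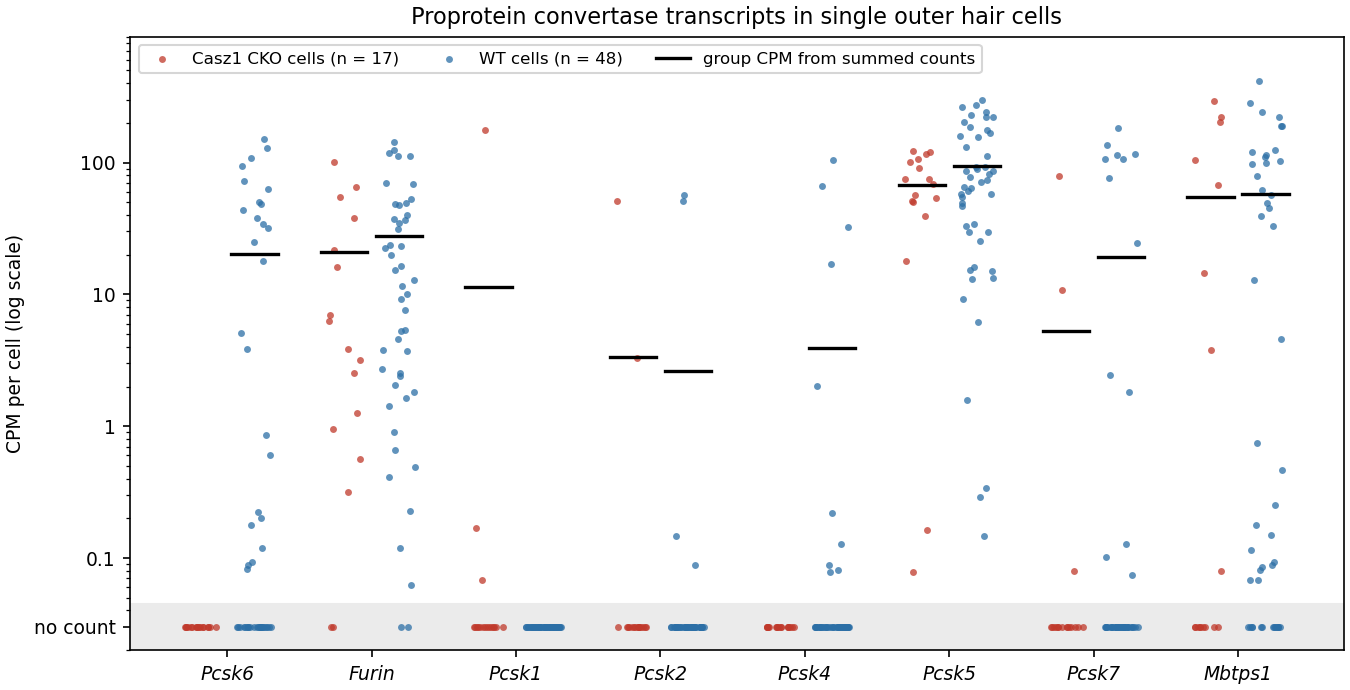
CPM per cell on a log scale for the 8 convertase genes, with Casz1 CKO cells (n = 17) left of WT cells (n = 48); each point is 1 cell, cells without a count lie in the grey band, and black lines give the CPM from summed counts. Pcsk6 and Pcsk4 have no count in any CKO cell, Pcsk1 has none in any WT cell, and Pcsk5 has a count in every cell.

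Pcsk5, whose product PC5 is secreted or membrane-bound depending on splicing, was the most widely detected member. All 17 CKO cells and all 48 WT cells had a count of Pcsk5. Its level was 0.0777 CPM in the lowest, 69.1 CPM in the median and 122.8 CPM in the highest CKO cell, against 0.147, 68.1 and 297 CPM in WT cells. The medians were thus almost the same, but 14 of 48 WT cells lay above every CKO cell. The summed level was 68.0 CPM (66.8 to 69.1) in CKO cells and 94.2 CPM (93.4 to 95.02) in WT cells, a log2 ratio of -0.47 (-0.50 to -0.44). The gap was wider against WT cells 46 to 48, at 176 CPM (log2 ratio -1.37), and among Xist-pattern cells, at 63.9 against 128 CPM (log2 ratio -1.004). Against WT cells 25 to 45, at 59.7 CPM, the direction turned, with a log2 ratio of 0.19.

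Furin, the ubiquitous convertase of the trans-Golgi network, was detected almost as widely but at lower and more variable levels. It had a count in 15 of 17 CKO cells (88.2%, 63.6% to 98.5%) and 46 of 48 WT cells (95.8%, 85.7% to 99.5%). Furin stood at 0, 3.83 and 100.1 CPM in the lowest, median and highest CKO cell, against 0, 10.9 and 142 CPM in WT cells. The groups overlapped over nearly the whole range, and 5 WT cells lay above the highest CKO cell. Summed Furin was 20.9 CPM in CKO cells and 27.7 CPM in WT cells, a log2 ratio of -0.41 (-0.46 to -0.36). In CKO cells 34.96% of all Furin counts came from cell 1, and without that cell the log2 ratio was -0.92. Against WT cells 1 to 11, at 21.3 CPM, the log2 ratio was -0.027, and against WT cells 46 to 48, at 19.4 CPM, it was 0.10.

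Pcsk7, whose product is a membrane-bound convertase of the constitutive secretory pathway, was rare and high where present. It had a count in 3 of 17 CKO cells (17.6%, 3.799% to 43.4%) and 13 of 48 WT cells (27.1%, 15.3% to 41.8%). The 3 CKO cells held 0.0803, 10.8 and 78.9 CPM of Pcsk7, and WT cells had a median of 0 and a highest of 182 CPM. Summed Pcsk7 stood at 5.25 CPM in CKO cells and 19.3 CPM in WT cells, a log2 ratio of -1.88 (-1.97 to -1.79). That ratio rested on few cells: 91.4% of the counts in CKO cells came from cell 10, and without it the log2 ratio was -5.33. WT cells 47 and 48 alone brought the run 46 to 48 to 80.5 CPM. The 2-fold difference was not present among Xist-pattern cells, at 5.96 against 6.92 CPM (log2 ratio -0.21). That comparison rested on 1 cell per group, CKO cell 10 with 960 of 1050 counts and WT cell 7 with all 853. WT cells 12 to 24 held 2 counts of Pcsk7 in all, against which the log2 ratio was 8.18 (6.32 to 11.23). Exons of Pcsk7 share 8.0% of their bases with Rnf214 on the opposite strand, at 34.1 CPM in CKO cells and 20.8 CPM in WT cells, and without a known strand setting their reads cannot be told apart.

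**Figure D2:**
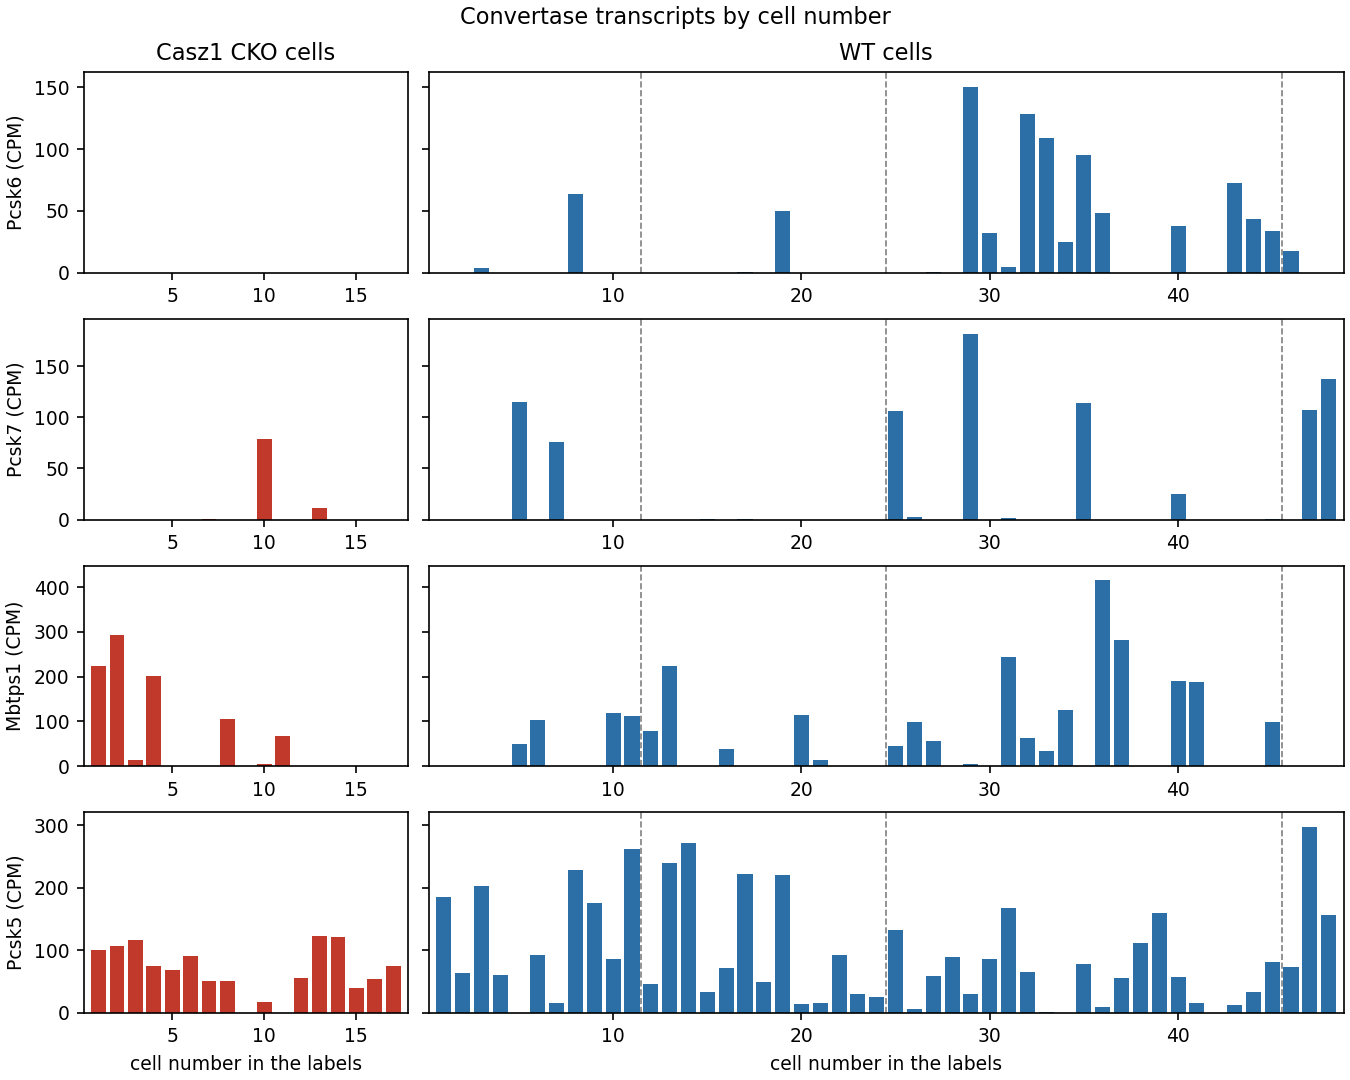
CPM of Pcsk6, Pcsk7, Mbtps1 and Pcsk5 in each cell by the number in its label, with Casz1 CKO cells on the left and WT cells on the right; dashed lines separate WT cells 1 to 11, 12 to 24, 25 to 45 and 46 to 48. Pcsk6 is concentrated in WT cells 29 to 36 and 43 to 46, and Pcsk7 and Mbtps1 are present in a part of the cells of both groups.

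The granule convertases were rare. Pcsk1, which makes the first cuts in prohormones, had no count in any of 48 WT cells (a limit of 6.25% by 3 cells of the total, 7.40% by the exact binomial interval). It had a count in 3 of 17 CKO cells (17.6%), with 2255 counts (175 CPM) in cell 11 and 0.0687 and 0.169 CPM, from 3 counts in all, in cells 1 and 17. The summed level in CKO cells was 11.3 CPM, 2064-fold higher than 3 counts over the WT group (log2 ratio 11.01, 9.46 to 13.29). It was therefore 99.9% from 1 cell, and without that cell no ratio is given since both groups were at or under 3 counts. Among the 9802 genes at 5 CPM or more in CKO cells, 0.775% had no count in any WT cell. Cell 11 had 12875719 counts (rank 4 of 17 from the highest) and 7510 genes detected (rank 8), with Slc26a5 at 839 CPM (rank 15 of 17) and OHC markers summing to 64107 CPM (rank 2). It also had the group's highest Cpe at 2448 CPM, was the only CKO cell with Vgf, the gene of a granule protein, at 31.2 CPM, and had no count of Chga or Chgb and the group's lowest Pcsk5, with 1 count. Inner hair cell markers summed to 0 CPM in it and neuron markers to 179 CPM, against a median of 184 CPM over the CKO cells.

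Pcsk2, which completes prohormone cleavage and needs the chaperone 7B2, was similarly sparse in both genotypes. CKO cells 5 and 8 held 3.27 and 51.2 CPM of Pcsk2, and the other CKO cells held none. Among WT cells 4 of 48 had a count, with 51.1 CPM in cell 37 and 56.5 CPM in cell 8 and 2 or fewer counts elsewhere. The summed 3.37 CPM in CKO cells and 2.64 CPM in WT cells gave a log2 ratio of 0.35, which was -3.59 without CKO cell 8, -0.66 against WT cells 1 to 11 and -0.81 among Xist-pattern cells. Of 11 granule proteins and convertase partners 4 reached 5 CPM in the higher group, 3 higher and 1 lower in CKO cells. Scg5, the gene of 7B2, stood at 206 CPM in CKO cells, with counts in 15 of 17, and at 294 CPM in WT cells, with counts in all 48. Scg3, a granin that sorts granule cargo, stood at 167 CPM in CKO cells and 60.9 CPM in WT cells (log2 ratio 1.45), and Chga at 64.8 and 44.1 CPM. Pcsk1n, the gene of the Pcsk1 inhibitor proSAAS, had 0 counts in CKO cells and 2 counts in WT cells. The only neuropeptide precursor of 11 to reach 5 CPM was Pomc, at 8.37 CPM in CKO cells and 6.69 CPM in WT cells, and 8 of the 11 had no count in any cell. Without CKO cell 14 Pomc was at 3.97 CPM in CKO cells, and the log2 ratio turned to -0.75.

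Enzymes that trim the products of the convertases ranged from abundant to absent. Cpe, the carboxypeptidase that removes the exposed basic residues, had a count in every cell, at 1171 CPM in CKO cells and 1377 CPM in WT cells. Of the 6 genes on this list 4 reached 5 CPM, 1 higher and 3 lower in CKO cells, with none past 2-fold; Qpct had no count in any cell, and Pam 0 counts in CKO cells and 4 in WT cells. Qpctl, a glutaminyl cyclase of the Golgi, stood at 38.9 and 44.7 CPM, and Ctsl, the gene of cathepsin L, at 29.3 and 29.1 CPM. Without CKO cell 10 Ctsl was at 19.7 CPM in CKO cells.

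Pcsk4 had no count in CKO cells and was found in some runs of WT cells. Pcsk4 was counted in 0 of 17 CKO cells (limits as for Pcsk6) and in 10 of 48 WT cells (20.8%, 10.5% to 34.99%), of which 5 had 10 or more counts. Its highest WT cells were cell 13 at 105 CPM and cell 17 at 66.9 CPM, and the median WT cell was at 0. The summed level was 0 CPM in CKO cells and 3.89 CPM in WT cells, under the 5 CPM used to call a gene measured, and none of the 9 Xist-pattern WT cells had a count. By run it was at 0 CPM in all 11 WT cells 1 to 11, so that CKO cells and these WT cells were alike without a count, at 13.8 CPM in cells 12 to 24, at 2.48 CPM in cells 25 to 45 and at 0.0275 CPM, from 1 count, in cells 46 to 48.

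**Figure D3:**
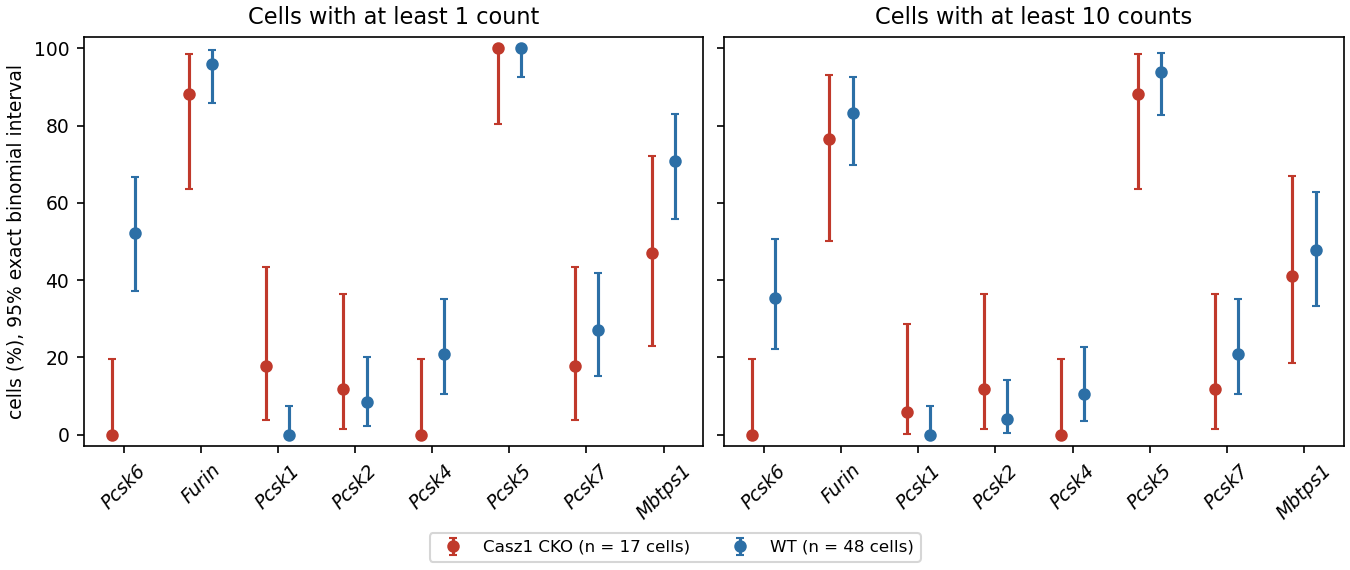
Percent of cells with at least 1 count (left) and at least 10 counts (right) of each convertase, with Casz1 CKO cells (n = 17) left of WT cells (n = 48); bars are exact binomial intervals at 95%, which treat cells as independent and hold no spread between animals. For Pcsk6 the shares at 10 counts are 0% in CKO cells and 35.4% in WT cells, and for Pcsk5 88.2% and 93.8%.

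Mbtps1 was present in part of the cells of both genotypes at high levels. A count was found in 8 of 17 CKO cells (47.1%, 22.98% to 72.2%) and 34 of 48 WT cells (70.8%, 55.9% to 83.0%), and 10 or more counts in 7 and 23. Mbtps1 stood at 0, 0 and 294 CPM in the lowest, median and highest CKO cell, against 0, 0.360 and 415 CPM in WT cells. The groups overlapped, apart from WT cell 36, which lay above every CKO cell. Summed Mbtps1 was 54.6 CPM in CKO cells and 57.8 CPM in WT cells, a log2 ratio of -0.081 (-0.11 to -0.050), and 12 of the 65 values obtained by leaving out 1 cell were above 0. Those 65 values ran from -0.53, without CKO cell 2, to 0.15, without WT cell 36. The 3 highest CKO cells held 78.0% of the Mbtps1 counts of their group. By run, the WT level was 33.9 CPM in cells 1 to 11, 35.4 CPM in cells 12 to 24, 91.4 CPM in cells 25 to 45, and 0.0275 CPM, from 1 count, in cells 46 to 48, so the direction depended on the cells compared. Among Xist-pattern cells it was 62.0 CPM in CKO cells and 42.2 CPM in WT cells (log2 ratio 0.55).

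The partners and substrates of site-1 protease had no common direction. Of 14 genes 13 reached 5 CPM, 6 higher and 7 lower in CKO cells, with a median log2 ratio of -0.18; over all 10842 genes at that level 5469 were higher and 5373 lower, with a median of 0.0092. The most abundant were Srebf2, a regulator of cholesterol synthesis, at 179 and 156 CPM, Atf6, the stress sensor cut by this protease, at 139 and 158 CPM, and Scap, the escort of SREBP, at 76.9 and 68.4 CPM, each in CKO and then WT cells. Mbtps2, the site-2 protease that makes the next cut, stood at 5.45 CPM in CKO cells and 13.0 CPM in WT cells (log2 ratio -1.25), and Insig2, which retains SCAP in the endoplasmic reticulum, at 12.1 and 47.2 CPM (log2 ratio -1.97), with counts in 4 of 17 and 32 of 48 cells. Gnptab, whose product needs site-1 protease to make the lysosomal sorting signal, stood at 0.505 and 14.02 CPM (log2 ratio -4.79), with counts in 3 of 17 and 15 of 48 cells. Creb3l3 was the gene of this list higher by 2-fold or more, at 7.87 CPM from 2 CKO cells and 0.0201 CPM in WT cells. Among Xist-pattern cells the median of the list was 0.22. Single cells weighed on these values: the log2 ratio of Mbtps2 was -2.57 without CKO cell 6 and -0.86 without WT cell 3, that of Insig2 -2.76 without CKO cell 1, and that of Gnptab -6.74 without CKO cell 16. Creb3l3 was at 2.68 CPM in CKO cells without CKO cell 4 (log2 ratio 7.06) and had a log2 ratio of 12.04 without WT cell 41, and Scap was at 68.3 CPM in CKO cells without CKO cell 5, a log2 ratio of -0.00078.

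Pooled over the family, 6 of the 8 genes reached 5 CPM in the higher group, and of these 2 (Pcsk6 and Pcsk7) were at least 2-fold lower and 1 (Pcsk1) at least 2-fold higher in CKO cells. Over all 10842 genes at that level, 14.5% were at least 2-fold lower and 15.1% at least 2-fold higher. Lower at any size were 5 of the 6, beside 49.6% of all genes. The family was chosen with this contrast known, and nothing is read from these counts.

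**Figure D4:**
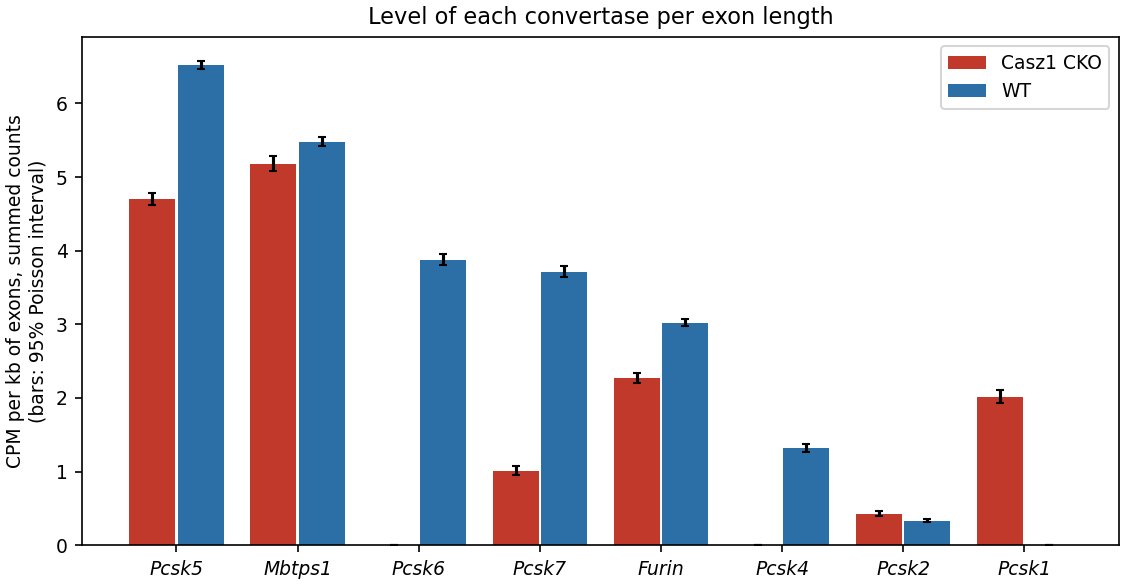
Summed CPM per kilobase of exons for each convertase, with Casz1 CKO left of WT and genes in order of the WT level; error bars are Poisson intervals at 95% on the summed counts. Pcsk5 and Mbtps1 are the highest members in both genotypes, and Pcsk6 at 3.88 CPM per kb in WT has no counterpart in CKO.

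Per kilobase of merged exons, the scale on which genes can be compared, Mbtps1 and Pcsk5 led in both genotypes. In CKO cells the levels were 5.18 CPM per kb for Mbtps1, 4.70 for Pcsk5, 2.27 for Furin, 2.02 for Pcsk1, 1.01 for Pcsk7 and 0.426 for Pcsk2, with Pcsk4 and Pcsk6 at 0. In WT cells they were 6.52 CPM per kb for Pcsk5, 5.48 for Mbtps1, 3.88 for Pcsk6, 3.71 for Pcsk7, 3.02 for Furin, 1.31 for Pcsk4 and 0.334 for Pcsk2, with Pcsk1 at 0. By the longest annotated transcript Pcsk5 came before Mbtps1 in CKO cells, and the WT order of the next 3 became Pcsk7, Furin and Pcsk6, so these neighbours have no fixed order. Single cells of all members ranged down to 0 or a few counts, so the ranges of every pair of neighbours overlapped.

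Each cell held few of the 8 transcripts. With 10 counts as the minimum, CKO cells had 1 to 4 members with a median of 2, and WT cells 0 to 5 with a median of 3; without Pcsk6 both medians were 2. Summed CPM over the family ran from 37.9 to 465 with a median of 107 in CKO cells, and from 0.685 to 574 with a median of 190 in WT cells. The most common pair was Furin with Pcsk5, in 11 of 17 CKO cells and 39 of 48 WT cells. Of the 17 WT cells with Pcsk6, 16 also had Pcsk5, 15 Furin, 9 Mbtps1 and 4 Pcsk7. Over all 48 WT cells 45 had Pcsk5, 40 Furin, 23 Mbtps1 and 10 Pcsk7, so no association is read from these overlaps. All 7 CKO cells with Mbtps1 also had Furin, beside 13 of all 17 CKO cells. Of the 23 WT cells with Mbtps1 19 had Furin, beside 40 of all 48. No contrast between genotypes is read from these counts.

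Across the 48 WT cells the 6 members counted in at least 20% of them (all but Pcsk1 and Pcsk2) had low correlations with each other. Spearman's rho of CPM between these 6 was between -0.32, for Pcsk5 with Mbtps1, and 0.30, for Pcsk6 with Furin, values too low to be a finding in sparse counts. Over the 8762 other named genes counted in at least 20% of WT cells, those most like Pcsk6 were Cenpf (0.64, counted in 14 cells, 13 of them shared), Gpr137 (0.63) and Kif16b (0.60). For Pcsk5 they were Med17 (0.55), Phf21b (0.55) and Nos1ap (0.54). For Furin they were Hydin (0.53), Ccdc65 (0.50) and Zfp513 (0.50), and for Mbtps1 Stard9 (0.57), Lrtm2 (0.54) and Llgl1 (0.52). Pcsk7 was nearest to Mblac2 (0.54) and Ppfibp2 (0.51), and Pcsk4 to Ogfr (0.51), Wdr26 (0.50) and Zfp35 (0.49). The cells share depth and cell-number runs, and these are the highest of the 8762 values for each gene.

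Precursors that convertases mature were partly present in these cells. Of 19 TGF-beta superfamily ligands 5 reached 5 CPM and 9 had no count in any cell, among them Nodal and Lefty2, signals of left-right patterning whose precursors convertases cut. Bmp6 stood at 40.8 CPM in CKO cells and 39.98 CPM in WT cells, and Gdf11 at 11.6 and 12.0 CPM. Bmp7 had 3 counts in CKO cells and 10.6 CPM in WT cells, from 10 of the 48 (log2 ratio -9.46, -11.74 to -7.92). Tgfb2 stood at 4.02 and 9.83 CPM (log2 ratio -1.29) and Tgfb3 at 10.2 and 4.13 CPM (log2 ratio 1.30). Tgfb2 had no count in CKO cells without CKO cell 1 and a log2 ratio of -0.44 without WT cell 2, and Tgfb3 had one of -0.19 without CKO cell 2 and 2.68 without WT cell 20. Bmp6 turned to -0.28 without CKO cell 7, and Gdf11 to 0.63 without WT cell 2.

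Of 12 other growth factor precursors 4 reached 5 CPM. Bdnf, the neurotrophin that supports innervation, stood at 168 CPM in CKO cells, all 17 with a count, and 117 CPM in WT cells, 43 of 48 with a count (log2 ratio 0.52). Artn, a ligand of the GDNF family, stood at 7.24 and 80.1 CPM (log2 ratio -3.47), with counts in 6 of 17 and 38 of 48 cells, and its relative Nrtn at 10.6 and 19.5 CPM (log2 ratio -0.88, and -1.30 without CKO cell 11).

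Among receptors and adhesion proteins with convertase sites, 6 of 12 reached 5 CPM, 3 higher and 3 lower. Igf1r and Insr, cut into their subunits by furin, stood at 59.3 and 34.7 CPM in CKO cells and 43.6 and 32.9 CPM in WT cells. Itgav, an integrin subunit, stood at 33.4 and 69.2 CPM (log2 ratio -1.05), Ptk7 at 2.88 and 11.6 CPM (-2.01), and Cdh2 at 8.70 and 3.34 CPM (1.38). Of the Ptk7 counts 96.7% in CKO cells came from cell 13, and the log2 ratio was -6.87 without it and -1.05 without WT cell 2. Itgav was at -0.87 without WT cell 40, Cdh2 at 2.37 without WT cell 43, and Insr turned to -0.48 without CKO cell 13.

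Of 17 proteases made as zymogens 10 reached 5 CPM, 5 higher and 5 lower. Adam10, the main sheddase among them, stood at 34.4 CPM in CKO cells and 33.96 CPM in WT cells, and Bace1 at 20.0 and 18.4 CPM. Higher by 2-fold or more were Mmp14 at 14.7 and 2.30 CPM, Adamts1 at 8.28 and 0.741 CPM, and Corin at 8.70 and 2.72 CPM, each counted in at most 4 CKO cells. The 2-fold difference of Adamts1 and Corin rested on 1 CKO cell each: without CKO cell 2 Adamts1 was at 0.563 CPM in CKO cells (log2 ratio -0.40), and without CKO cell 17 Corin was at 3.31 CPM (log2 ratio 0.28). Their log2 ratios were 6.13 without WT cell 13 and 3.55 without WT cell 46. That of Mmp14 was 2.06 without CKO cell 14 and 11.95 without WT cell 32, which held nearly all its WT counts. Adam10 turned to -0.26 without CKO cell 3 and Bace1 to -0.74 without CKO cell 4. Mmp16 had no count in CKO cells and 10.6 CPM in WT cells, from 8 of the 48. With 3 counts over the CKO group it was 707-fold lower (log2 ratio -9.47, -11.74 to -7.92). Among the 9776 genes at 5 CPM or more in WT cells, 1.52% had no count in any CKO cell. Adam15 had 4 counts in CKO cells and 7.04 CPM in WT cells, from 10 of the 48 (log2 ratio -8.46, and -9.39 without CKO cell 4). Of 10 genes of furin sorting in the trans-Golgi network 9 reached 5 CPM, 3 higher and 6 lower; Flna, which tethers furin at the cell surface, stood at 7.09 and 27.1 CPM (log2 ratio -1.93, and -2.85 without CKO cell 4), while Vps29, Vps35 and Ap1s1 stood at 176, 183 and 119 CPM in CKO cells and 190.0, 172 and 151 CPM in WT cells, and Vps35 turned to -0.090 without CKO cell 5.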

How the data were processed

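The authors deposited whole-number counts per gene symbol for 65 cells. The submitters' processing notes name the build mm10 and, with no role or order, featureCounts 2.0.1, HISAT2 2.2.1 and StringTie 2.2.1; the counting tool, annotation and strand setting were not given in the sources used. Per the labels' protocols, cDNA came from a Smart-Seq HT kit, without molecular identifiers. Depth was 7458126 to 17107710 counts per cell. No cell was removed, doublets were not called in hand-picked cells, and no 2 columns were identical.

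Counts were summed per genotype and divided by the summed total (CPM). Poisson, binomial and conditional ratio intervals are exact. A group without counts was set to 3 counts. A gene was measured at 5 CPM in the higher group, and called at 2-fold. No test was run, because each genotype is 1 sample. GENCODE M21 (GRCm38) gave exon lengths and overlaps; 96.4% of symbols matched. Functions were tested on simulated data. SciPy 1.17.1, edgeR 4.0.16 and DESeq2 1.42.0 (scaling factors only) were used.

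The members, gene lists, runs and rules were chosen with earlier results of these data known. Named were the 8 members, the 3 most abundant measured genes of each list and those past 2-fold, and the 3 genes most like each member counted in at least 20% of WT cells. A few genes that this rule names are not reported here. Alternatives were other scalings, thinning each cell to 7000000 counts, other cell sets, and leaving out cells.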

Additional observations from a re-analysis of the deposited data

How the results depend on the processing

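Comparison with WT cells 12 to 24 or 25 to 45, the list genes without their highest cell and Pcsk6 by Xist or Y pattern within WT cells 1 to 11 were added after seeing the data; all others were planned. Each genotype is 1 sample, so no result has a test. No paired analysis was possible because a number in a label is only the name of a cell. Pcsk6 was at 0% of CKO cells at 1 or 10 counts, after thinning and in Xist-pattern cells. With no count in any CKO cell these shares could only be 0%, so they check nothing. The log2 ratio of Pcsk6, a bound with 3 counts set for the CKO group, was -10.39. This bound was -8.72 beside WT cells 1 to 11, -8.66 beside cells 46 to 48 and -8.13 beside cells 12 to 24. Each of these runs had most or all of its Pcsk6 counts in 1 cell. These were 925 of 984 in cell 8, 221 of 221 in cell 46 and 456 of 463 in cell 19. The bound over all cells ranged from -10.43 to -10.18 when 1 cell was left out. Leaving out a CKO cell changes only the total of that group, so the range holds no spread of Pcsk6 between CKO cells. The share of WT cells with Pcsk6, 52.1%, was 35.4% at 10 counts, 36.4% in cells 1 to 11, 33.3% in cells 46 to 48, 23.1% in cells 12 to 24 and 80.95% in cells 25 to 45. Members at least 2-fold lower numbered 2, and 3 against WT cells 12 to 45 or 46 to 48. The added member was Pcsk4 against cells 12 to 45 (log2 ratio -8.64) and Pcsk5 against cells 46 to 48 (-1.37). Among Xist-pattern cells Pcsk5 (-1.004) was past 2-fold and Pcsk7 (-0.21) was not, so the set changed. Against WT cells 12 to 24 only 1 member was at least 2-fold lower, Pcsk4, at 0 CPM in CKO cells and 13.8 CPM in those WT cells. In that comparison Pcsk6, at 4.20 CPM in the WT cells, fell under the 5 CPM minimum, and Pcsk7 turned to 8.18. Without 1 cell the members at least 2-fold lower stayed at 2 to 2. Members at least 2-fold higher numbered 1, but 0 without the highest cell of each group, 2 against WT cells 46 to 48 or 12 to 24, and 0 to 1 without 1 cell (0 without CKO cell 11). With a minimum of 1 CPM or none, 3 members were lower, Pcsk4 being added. TMM, median-of-ratios factors and a total without mitochondrial and ribosomal protein genes moved all log2 ratios by -0.034, -0.033 and -0.032. Of 63 list medians under other settings 24 changed sign, in 9 of 9 lists, so no direction is claimed for them. Some Pcsk4 ratios were not computed because both groups were at or under 3 counts. Depth limits the members with few counts: 3 counts are 0.0150 CPM over the CKO group and 0.00548 CPM over the WT group.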
